A study of Mus musculus with 4 samples.

Results

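Transcripts of 10 genes, the Toll-like receptors Tlr1, Tlr2, Tlr3, Tlr4, Tlr6, Tlr7 and Tlr9, the Toll-like receptor homologue Cd180 (also known as RP105) and the accessory genes Ly86 (MD-1) and Ly96 (MD-2), were compared between wild-type peritoneal B1a cells and splenic follicular B2 cells. The genes were chosen by name and by family, with earlier results of these data known. All 10 were found among the 20599 gene symbols of the RNA-Seq tables, each as 1 entry. Both groups came from C57BL/6 mice of the wild-type genotype and hold 2 libraries each. B1a cells were sorted from the peritoneal cavity as CD23- IgM+ CD5+ B cells, and follicular B2 cells from the spleen as B cells with high IgD, low IgM and CD21. The labels give an age of 4 weeks for all 4 libraries, whereas the methods give an older age for the splenic follicular cells. The effects of cell type and tissue, and of age if the methods hold, cannot be told apart. By the methods, B1a libraries were made from as many cells as the B2 libraries or fewer. The methods name 2 control mice for each cell type, but the labels do not tie libraries to mice, so p-values measure the spread between these libraries.

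Toll-like receptors are pattern recognition receptors that bind microbial products through leucine-rich repeats and signal through a cytoplasmic TIR domain. TLR2 acts at the cell surface as a heterodimer with TLR1, for triacylated lipopeptides, or with TLR6, for diacylated lipopeptides, and TLR4 binds lipopolysaccharide together with MD-2. TLR3, TLR7 and TLR9 sense nucleic acids in endosomes. RP105, the product of Cd180, resembles TLR4 outside the cell, lacks a TIR domain, is held at the surface by MD-1 and is known in B cells for a signal that passes through LYN and VAV. B1a cells are innate-like B cells that make much of the natural antibody in serum and respond to Toll-like receptor ligands without T cell help, whereas follicular B2 cells recirculate and mostly respond to antigen with T cell help.

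Tlr1 and Tlr6 are neighbours on chromosome 5, on the minus strand, with 19491 bases between them. In GRCm38, Tlr1 spans chr5:64924680-64933600 and Tlr6 spans chr5:64953092-64970942. Their transcripts share an identical coding stretch of 229 bases. It is shown because a read that lies within it cannot be assigned to 1 gene, and Tlr1 and Tlr6 went in opposite directions between the cell types. The stretch lies at chr5:64925537-64925765 in the transcript Tlr1-202 and at chr5:64953828-64954056 in Tlr6-201 (GRCm38, GENCODE vM21), and reads as follows on the minus strand.
Tlr1 and Tlr6, shared coding stretch: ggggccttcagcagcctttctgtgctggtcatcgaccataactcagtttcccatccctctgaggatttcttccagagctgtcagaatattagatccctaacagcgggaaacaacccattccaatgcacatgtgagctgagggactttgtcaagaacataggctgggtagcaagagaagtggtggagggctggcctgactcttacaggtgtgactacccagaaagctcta
Of all windows of 75 bases, 340 are found in both transcripts, which is 11.5% of the windows of Tlr1-202 and 9.44% of those of Tlr6-201. The authors' counts give Tlr6 a length of 2600 bases, whereas Tlr6-201 has 3677, so the share for the counted transcript can differ. The authors' counting divides reads that fit both genes between them and states a posterior standard deviation for every count. It was between 4.06 and 5.87 counts for Tlr1 and Tlr6 in the 4 libraries, against at least 108.58 counts for either gene. Tlr6 also lies across from Fam114a1 on the other strand, and the exons of these genes share 0 bases.

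Windows of 250 bases before the RefSeq start sites (GRCm38.p6) were found for 7 of the 10 genes, 10 windows in all. Tlr1 is shown because it was the only one of the 10 genes that passed the test. It has 2 windows, and the one printed holds a motif match. The other, at chr5:64932700-64932949, had 0 matches, and 211 of its bases are annotated exon. The Tlr9 window is shown because it was the only one of the 10 windows with an octamer motif. This motif is a site known for the binding of OCT factors in B cells. The ETS core searched was AGGAAG and the octamer ATGCAAAT, on both strands, and capitals mark the matches. Tlr1 is shown at chr5:64933564-64933808 on the minus strand, where the last 5 bases of the window are left out as annotated exon, and Tlr9 at chr9:106222348-106222597 on the plus strand.
Tlr1, upstream: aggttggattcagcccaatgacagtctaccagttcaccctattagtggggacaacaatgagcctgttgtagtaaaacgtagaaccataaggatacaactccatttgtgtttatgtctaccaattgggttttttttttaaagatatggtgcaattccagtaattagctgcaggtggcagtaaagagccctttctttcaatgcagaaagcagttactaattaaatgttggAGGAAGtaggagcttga
Tlr9, upstream: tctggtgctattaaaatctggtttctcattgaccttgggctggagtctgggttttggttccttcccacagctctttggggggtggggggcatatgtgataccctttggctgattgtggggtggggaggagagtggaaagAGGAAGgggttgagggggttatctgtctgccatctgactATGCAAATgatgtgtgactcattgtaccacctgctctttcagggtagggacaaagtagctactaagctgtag
The match in Tlr1 begins 22 bases before the start site of the printed window. That start site and the match both lie inside the span given above for Tlr1, which reaches chr5:64933600. In Tlr9 the ETS core begins 111 bases and the octamer 72 bases before the start site. The ETS core was present in 5 of the 10 windows and in 29.5% of 32851 windows of the same length. The octamer was present in 1 of the 10 and in 1.6% of all windows. A motif similar to kappa B sites, GGGNNTTCC, was present in 1 of the 10 windows, that of Tlr2, and in 4.98% of all windows. These matches are letters only, and binding was not measured here.

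Total counts were between 11032732 and 18588623 per library, and the floor for detection was set at 3 counts, or 0.157 to 0.27 CPM. CPM is the count relative to the library total after TMM scaling. This floor covers counting error only. The B1a libraries differed more from each other than the B2 libraries did. The Pearson correlation of log2 CPM over 12078 tested genes, which are not independent replicates, was 0.836 between the B1a libraries and 0.966 between the B2 libraries. It was 0.858 and 0.837 between B1a replicate 2 and the B2 libraries, so this library was no closer to its own replicate, and 0.805 and 0.788 for B1a replicate 1. Genes with 100 counts or more in a library but 3 or fewer in its replicate numbered 200 in B1a and 4 in B2 cells. The B cell genes Cd79a, Cd79b, Ms4a1, Cd22 and Pax5 were all found at 265 CPM or more in each library. Cd79a and Ms4a1 were called higher in B1a cells, and Pax5 and Cd22 higher in B2 cells. Of the sort markers, Fcer2a (CD23) was between 60.9 and 63.7 CPM in B1a and between 896 and 934 CPM in B2 cells, and Cd5 was 15.9 and 22.4 CPM against 5.47 and 2.25 CPM.

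Of the 10 genes, all passed the filter on low counts. At an adjusted p under 0.05, 1 gene, Tlr1, was higher in B2 cells, where 1.5% of all tested genes were called in that direction, and 0 were higher in B1a cells, where 4.24% of tested genes were called (edgeR's quasi-likelihood test, p adjusted by Benjamini and Hochberg). Without adjustment, 6 of the 10 genes had a p under 0.05 in this test, against 20.9% of all tested genes. DESeq2 called 5 of the 10, which adds Tlr6, Tlr9, Cd180 and Ly86, against 12.9% of all tested genes. Leaving out either B1a library gave calls for 8 of the 10 genes, but 31% of all genes were called without B1a replicate 1 and 48.9% without B1a replicate 2. In these fits the lone B1a library is assumed to vary like the B2 libraries. In CPM the libraries of the groups did not overlap for 9 of the 10 genes, 6 of them higher in B1a and 3 higher in B2 cells, against 54.3% of all tested genes. The median log2 fold change of B1a over B2 was 0.57 for the 10 genes and -0.03 for all tested genes. The smallest p that an exact permutation test of 2 against 2 libraries can give is 0.33, and the calls use a spread that edgeR shares among genes.

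**Figure D1:**
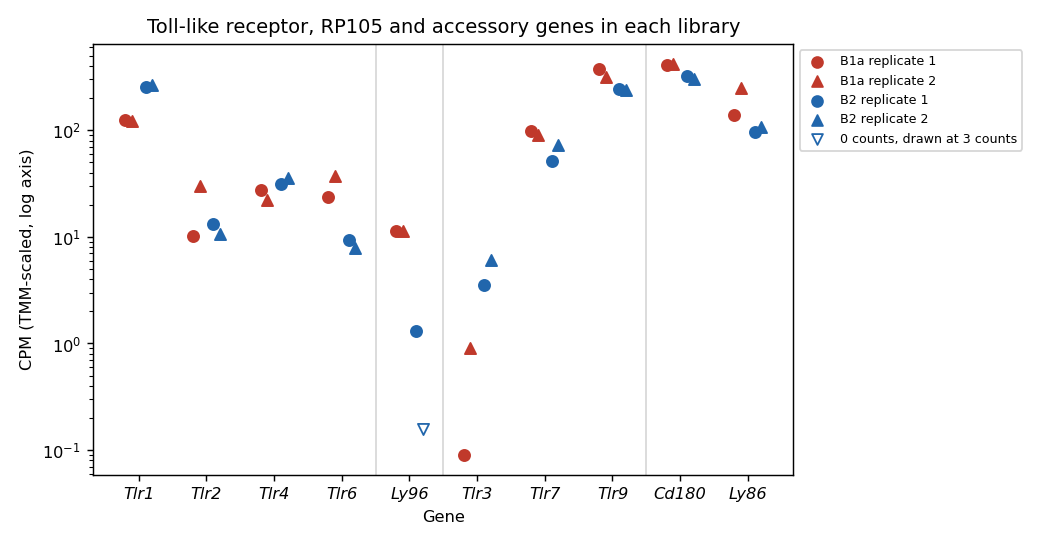
CPM after TMM scaling (log axis) of each of the 10 genes in the 2 B1a libraries (red) and the 2 B2 libraries (blue), with vertical lines between surface receptors, Ly96, endosomal receptors and the RP105 complex. Tlr1 lies near 123 CPM in B1a and at 253 and 267 CPM in B2 cells, and the open triangle for Ly96 marks a library with 0 counts, drawn at the level of 3 counts.

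Among the surface receptors, Tlr1, the partner of TLR2 for triacylated lipopeptides, was measured at 123 and 123 CPM in the B1a libraries and at 253 and 267 CPM in the B2 libraries. Both B2 libraries were above both B1a libraries. Expression of Tlr1 was 2.11-fold higher in B2 cells, with a log2 fold change of B1a over B2 of -1.08 ± 0.13 (SE) and a 95% interval from -1.41 to -0.75 (edgeR's quasi-likelihood test, adjusted p = 0.010). In TPM, which accounts for transcript length, Tlr1 was at 95.3 ± 1.96 in B1a and 246 ± 8.01 in B2 cells (SD, n = 2). This call was kept under each of the 10 other settings tried and with each library left out in turn.

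Tlr6, the other partner of TLR2, had the opposite order. It was measured at 23.5 and 37.2 CPM in B1a cells and at 9.42 and 7.91 CPM in B2 cells, and both B1a libraries were above both B2 libraries. The log2 fold change was 1.81 ± 0.45 (SE), with a 95% interval from 0.69 to 2.92, and did not pass the threshold after adjustment (edgeR's quasi-likelihood test, adjusted p = 0.0899). Tlr6 passed in 4 of the 10 alternatives, among them DESeq2, limma-voom weighted by cell type and the fit without a filter, and without either B1a library. Tlr2, the shared partner, was measured at 10.2 and 30.0 CPM in B1a and at 13.3 and 10.7 CPM in B2 cells. Its groups overlapped, since B1a replicate 1 was the lowest of the 4 libraries and B1a replicate 2 the highest. The log2 fold change of Tlr2 was 0.75 with a 95% interval from -0.81 to 2.31 (edgeR's quasi-likelihood test, adjusted p = 0.589), and it turned to -0.23 without B1a replicate 2 and was 1.33 without B1a replicate 1, where it passed (adjusted p = 0.000254).

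Within each library, Tlr1 was more abundant than Tlr6 per length. The ratio of Tlr1 to Tlr6 in TPM was 4.497 and 2.84 in the B1a libraries and 23.7 and 30.0 in the B2 libraries. The ratios did not overlap, and the difference of their mean log2 values was -2.90 (two-sided exact permutation test, p = 0.333, the smallest p that this design allows). The ratio of Tlr1 to Tlr2 was 11.4 and 3.86 in B1a against 18.5 and 24.5 in B2 cells, also without overlap and with the same p. For this pair B1a replicate 2 was the lowest, the library in which Tlr2 was high.

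**Figure D2:**
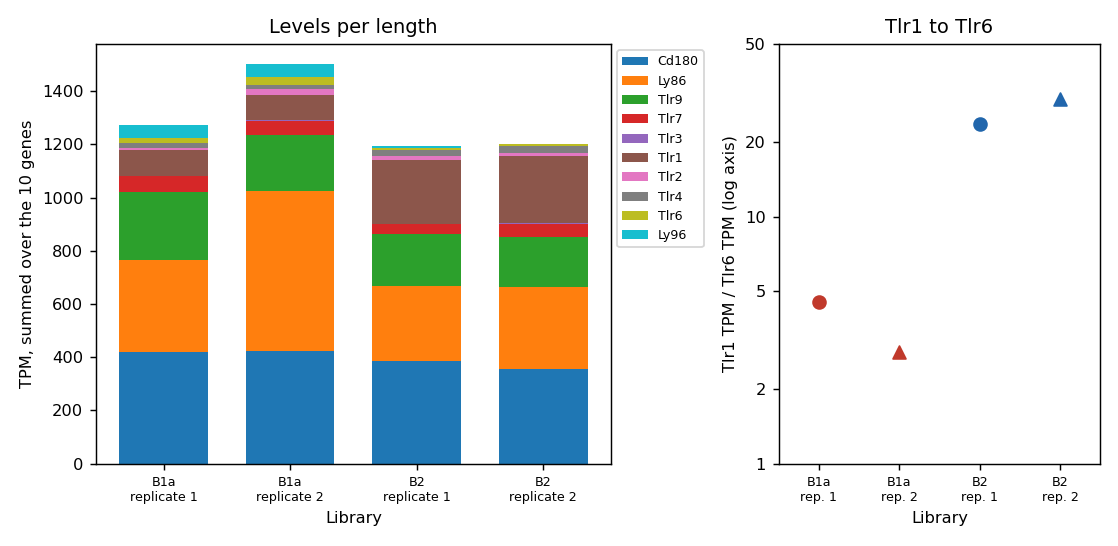
Left, TPM of the 10 genes stacked for each library, with TPM on the vertical axis. Right, the ratio of Tlr1 to Tlr6 in TPM (log axis) for each library, which is 4.497 and 2.84 in B1a (red) and 23.7 and 30.0 in B2 cells (blue).

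Tlr4, the lipopolysaccharide receptor, was measured at 27.3 and 22.2 CPM in B1a and at 31.1 and 35.4 CPM in B2 cells. The B2 libraries were the higher ones, but the difference was within the error of the fit, with a log2 fold change of -0.43 and a 95% interval from -1.22 to 0.37 (edgeR's quasi-likelihood test, adjusted p = 0.539). Ly96 encodes MD-2, the part of the TLR4 complex that holds lipopolysaccharide. Its counts were 126 and 125 in the B1a libraries and 15 and 0 in the B2 libraries, or 11.3, 11.2, 1.30 and 0 CPM. The 0 in B2 replicate 2 allows up to 3 counts, which is 0.157 CPM in that library. The SD between the B1a libraries was 0.0379 CPM (n = 2), and both were above both B2 libraries. The fitted log2 fold change of 4.14 had a wide 95% interval, from -0.41 to 8.69, and did not pass (edgeR's quasi-likelihood test, adjusted p = 0.283), whereas limma-voom weighted by cell type called it. The value was 10.28 without B2 replicate 1, where the remaining B2 library is at 0 and the fit sets the size, and 3.10 without B2 replicate 2, and neither passed. Without either B1a library it was 4.23 and 4.25 and passed. Cd14, a coreceptor that hands lipopolysaccharide to TLR4 and MD-2, was at 1.70 and 2.79 CPM in B1a and at 0.434 and 0 CPM in B2 cells and was not called. The lipid receptor Cd36, which assists TLR2, was between 16.2 and 22.8 CPM in all libraries.

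Tlr2, Tlr4, Ly96 and Cd14 are also expressed by macrophages, which are abundant in the peritoneal cavity. Of 13 macrophage markers, 10 were tested and 1, Lyz2, was called, higher in B1a cells (edgeR's quasi-likelihood test), while 5 had an unadjusted p under 0.05 and 3 were called by DESeq2. Over all tested genes the shares under these rules were 5.74%, 20.9% and 12.9%, in either direction. The 10 tested markers had a median log2 fold change of 1.71. The 13 markers summed to 245 and 276 CPM in the B1a libraries and 73.7 and 78.0 CPM in the B2 libraries, and Lyz2 made up 127 and 136 CPM of it in B1a cells. Gata6 and Timd4, markers of resident peritoneal macrophages, were at most 0.54 CPM in any library, and Fcgr1 was at 0 in both B1a libraries. Emr1, which encodes F4/80, was at 27.7 and 39.0 CPM in B1a against 8.24 and 11.9 CPM in B2 cells. Of the 10 tested markers, 7 did not overlap between groups, against 54.3% of all tested genes in either direction. All 7 were higher in B1a cells. Besides Lyz2 and Emr1 they were Cd14, C1qa, C1qb, C1qc and Cd68. The log2 fold change was 1.97 for C1qa, 1.93 for C1qb, 1.69 for C1qc and 1.69 for Cd68. Csf1r, Mertk and Marco overlapped between groups. Of 4 mast cell markers 2 were tested and 0 called in edgeR's quasi-likelihood test (0 with an unadjusted p under 0.05 and 0 by DESeq2), with a sum of 19.2 and 8.72 CPM in B1a against 1.47 and 0.941 CPM in B2 cells, and the dendritic cell markers summed to between 20.02 and 47.1 CPM in all libraries. The part of such cells in the Ly96, Tlr6 and Tlr2 values was not tested. In such bulk samples, fewer cells of a type and less RNA per cell cannot be told apart.

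Among the endosomal receptors, Tlr9, the receptor for unmethylated CpG DNA, was the most abundant in both cell types. It was measured at 378 and 319 CPM in B1a and at 245 and 237 CPM in B2 cells, and both B1a libraries were above both B2 libraries. The log2 fold change was 0.53 ± 0.14 (SE), with a 95% interval from 0.19 to 0.87, and missed the threshold after adjustment (edgeR's quasi-likelihood test, adjusted p = 0.0955). Tlr7, the receptor for single-stranded RNA, was measured at 98.2 and 90.2 CPM in B1a and at 51.3 and 73.1 CPM in B2 cells. Again both B1a libraries were the higher ones, with a log2 fold change of 0.60 and a 95% interval from 0.0053 to 1.19 (edgeR's quasi-likelihood test, adjusted p = 0.236). Tlr7 lies on the X chromosome, and the Y-linked genes Ddx3y, Eif2s3y, Kdm5d and Uty were found in all 4 libraries, with a sum between 378 and 412 CPM. The ratio of Tlr9 to Tlr7 in TPM was 4.21 and 3.91 in B1a and 5.25 and 3.61 in B2 cells, and the groups overlapped.

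Tlr3, the receptor for double-stranded RNA, had the lowest mean TPM of the 10 genes in either cell type, although Ly96 overlapped it in B2 cells. Its counts were 1 and 10 in the B1a libraries and 40.9 and 117 in the B2 libraries, or 0.0896, 0.899, 3.54 and 6.12 CPM. Both B2 libraries were the higher ones, and B1a replicate 1 was under the floor of 3 counts. The fitted log2 fold change of -3.27 had a 95% interval from -7.20 to 0.66 and did not pass (edgeR's quasi-likelihood test, adjusted p = 0.326). It was -2.42 without B1a replicate 1 (adjusted p = 0.056) and -5.63 without B1a replicate 2, where it passed (adjusted p = 0.000345).

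In TPM, Cd180 and Ly86 of the RP105 complex had the highest means of the 10 genes in both cell types, whereas in CPM, which is not per length, Ly86 was below Tlr9. Cd180 was measured at 410 and 422 CPM in B1a and at 320 and 301 CPM in B2 cells. The B1a libraries were both above the B2 libraries by an amount that was small in size, with a log2 fold change of 0.42 ± 0.12 (SE) and a 95% interval from 0.14 to 0.70 (edgeR's quasi-likelihood test, adjusted p = 0.109). Ly86, whose product MD-1 binds RP105, was measured at 137 and 247 CPM in B1a and at 95.8 and 106 CPM in B2 cells. Its groups did not overlap, but the B1a libraries stood far apart from each other. The log2 fold change of Ly86 was 0.93 ± 0.29 (SE), with a 95% interval from 0.22 to 1.64 (edgeR's quasi-likelihood test, adjusted p = 0.147). It was 0.44 without B1a replicate 2 and 1.29 without B1a replicate 1. Ly86 passed in 4 of the 10 alternatives. Per length, the ratio of Ly86 to Cd180 was 0.818 and 1.43 in B1a and 0.729 and 0.862 in B2 cells, so the groups overlapped and B1a replicate 2 was the only library above 1.

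**Figure D3:**
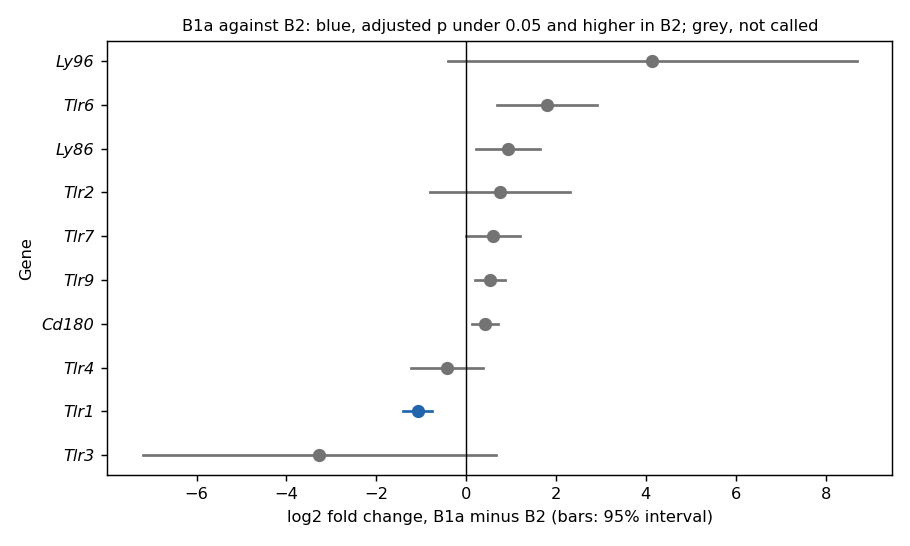
Fitted log2 fold change of B1a over B2 cells for the 10 genes (points) with its 95% interval (bars). Tlr1 (blue) is the only gene called, at -1.08, and the intervals of Ly96 and Tlr3, the genes with the fewest counts, are the widest.

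In order of TPM, B2 cells had Cd180 (371), Ly86 (294), Tlr1 (246), Tlr9 (191), Tlr7 (44.4), Tlr4 (23.8), Tlr2 (11.6), Tlr6 (9.25), Ly96 (3.34) and Tlr3 (3.05), given as means of 2 libraries. Of the neighbours in this order, only Ly96 and Tlr3 overlapped between libraries. In B1a cells the order was Ly86 (473), Cd180 (421), Tlr9 (234), Tlr1 (95.3), Tlr7 (57.5), Ly96 (48.5), Tlr6 (27.3), Tlr2 (16.4), Tlr4 (14.96) and Tlr3 (0.265). Here Ly86 and Cd180, Tlr6 and Tlr2, and Tlr2 and Tlr4 overlapped. Tlr1 thus ranked above Tlr9 in both B2 libraries and below it in both B1a libraries, and Tlr4 ranked above Tlr6 in B2 cells and below it in B1a cells. The 10 genes summed to 1274 and 1502 TPM in B1a and to 1194 and 1201 TPM in B2 cells. The surface receptors Tlr1, Tlr2, Tlr4 and Tlr6 made up 11.2% and 11% of that sum in B1a and 23.9% and 24.6% in B2 cells, and Cd180 with Ly86 made up 59.9% and 68.2% against 55.9% and 55.3%. The endosomal receptors made up 24.9% and 17.7% in B1a and 19.7% and 20.1% in B2 cells, and here the groups overlapped. These shares were not tested.

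The genes nearest to Tlr1 in their pattern over the 4 libraries, by the Euclidean distance of centred log2 CPM, were Vav3 (distance 0.0323), Mettl2 (0.0544) and Prkd2 (0.0598), among 8900 tested genes whose mean was 10 CPM or more. Vav3, a guanine nucleotide exchange factor, was measured at 18.7 and 18.8 CPM in B1a and at 39.7 and 41.4 CPM in B2 cells. Vav3 and Mettl2 were not called (edgeR's quasi-likelihood test, adjusted p = 0.112 and 0.0532), whereas Prkd2 was called higher in B2 cells (adjusted p = 0.00716). With 4 libraries, many genes have such a pattern, and the distances are a description only.

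Of the remaining Toll-like receptor genes of the mouse, 3 of 5 were tested and 0 were called in edgeR's quasi-likelihood test, while Tlr8 alone had an unadjusted p under 0.05 and was the 1 gene called by DESeq2. Tlr5 had 0 counts in every library, which allows up to 3 counts in each, and Tlr11 had 0 in the B1a libraries and 5 and 25 counts in the B2 libraries. Tlr8, which is close to Tlr7 in sequence and position, was measured at 13.0 and 2.97 CPM in B1a and at 0.52 and 0.157 CPM in B2 cells, with no overlap between groups but a large gap between the B1a libraries (log2 fold change 4.55, 95% interval from 0.90 to 8.21, edgeR's quasi-likelihood test, adjusted p = 0.160). Tlr12 had the opposite order, at 0 and 0.989 CPM in B1a and 7.46 and 6.80 CPM in B2 cells, and was not called (edgeR's quasi-likelihood test, adjusted p = 0.321). Tlr13, a receptor for bacterial ribosomal RNA, was between 3.29 and 7.86 CPM in all libraries.

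Together with these receptors, 60 genes of the pathway besides the 10 genes were listed and 55 were tested. Of these, 2 were called higher in B1a cells (Unc93b1 and Tnfaip3) and 3 higher in B2 cells (Irf8, Peli1 and Pik3ap1), against 5.74% of all tested genes called in either direction. Their median log2 fold change was 0.11, beside -0.03 over all tested genes.

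Unc93b1 encodes the chaperone that carries TLR3, TLR7 and TLR9 from the endoplasmic reticulum to endosomes. It was measured at 955 and 755 CPM in B1a and at 538 and 508 CPM in B2 cells, the highest CPM of the chaperones and proteases listed. CPM is not per length, and in B2 cells Ctss had the higher mean TPM (678 against 645), with overlap between libraries. For Unc93b1, both B1a libraries were above both B2 libraries. Its log2 fold change was 0.71 ± 0.14 (SE, edgeR's quasi-likelihood test, adjusted p = 0.0487), which lies close to the threshold. The call was lost with upper quartile factors, on the TPM scale and without B2 replicate 2. Of the 11 chaperones and processing genes, 10 were not called. Hsp90b1 (gp96), a chaperone that Toll-like receptors need to fold, was at 482 and 519 CPM in B1a against 298 and 361 CPM in B2 cells (log2 fold change 0.60, edgeR's quasi-likelihood test, adjusted p = 0.0699), and Ctss, an endosomal protease, was at 456 and 469 CPM against 297 and 349 CPM (0.52, adjusted p = 0.0883). Both had no overlap between groups.

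Of the 6 adaptors, 1 was called. Pik3ap1 (BCAP), which links Toll-like and B cell receptors to PI3 kinase, was measured at 162 and 108 CPM in B1a and at 355 and 353 CPM in B2 cells, with a log2 fold change of -1.39 ± 0.21 (SE, edgeR's quasi-likelihood test, adjusted p = 0.0201). Its call was lost only on the unfiltered TPM scale. Myd88, the adaptor of all receptors in the set except TLR3 and RP105, was measured at 25.7 and 33.3 CPM in B1a and at 29.6 and 23.4 CPM in B2 cells, and the groups overlapped (log2 fold change 0.16, 95% interval from -0.69 to 1.00). Ticam1 (TRIF), the adaptor of TLR3 and, with TRAM, of TLR4, was at 78.2 and 74.9 CPM in B1a and at 38.7 and 35.0 CPM in B2 cells. The libraries within each group were close, yet its log2 fold change of 1.06 was just short of the threshold (edgeR's quasi-likelihood test, adjusted p = 0.0550), and it passed in 6 of the 10 alternatives, DESeq2 (adjusted p = 0.00702) and limma-voom (0.0277) among them. The same held for Ticam2 (TRAM), which was picked out after its values were seen, at 40.6 and 31.1 CPM against 9.94 and 6.43 CPM (2.13, adjusted p = 0.0506). Tirap, which brings MYD88 to TLR2 and TLR4, was between 89.3 and 110 CPM in all libraries.

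Among 17 kinases and ubiquitin ligases, 15 were tested and 1, Peli1, was called. Peli1 encodes an E3 ligase of the IRAK complex and was measured at 44.3 and 60.3 CPM in B1a and at 111 and 125 CPM in B2 cells (log2 fold change -1.18 ± 0.23, edgeR's quasi-likelihood test, adjusted p = 0.0431). The Peli1 call was lost on 2 of the TPM scales and without either B2 library. Ikbkb, Traf3 and Irak1 had the highest mean CPM of this list, which is not per length, and were not called. In mean TPM, Irak2 (173 in B1a and 162 in B2 cells, not called) was above Traf3 (72.7 and 97.8). Ikbkb and Traf3 differed by at most 0.19 in absolute log2 fold change. Of 9 inhibitors of the pathway, 1 was called. Tnfaip3 (A20), a ubiquitin-editing enzyme that ends NF-kappa B signals, was measured at 276 and 221 CPM in B1a and at 80.8 and 79.0 CPM in B2 cells, 3.11-fold higher in B1a cells (log2 fold change 1.64 ± 0.17, edgeR's quasi-likelihood test, adjusted p = 0.00597). Both B1a libraries were far above both B2 libraries, and the call was lost only on the unfiltered TPM scale. Cyld, Rnf216 and Tnip1 were not called, with Rnf216 at 93.0 and 159 CPM in B1a and 183 and 223 CPM in B2 cells.

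Of 4 IRF factors that act below Toll-like receptors, 1 was called. Irf8 was measured at 116 and 103 CPM in B1a and at 395 and 386 CPM in B2 cells, 3.57-fold higher in B2 cells (log2 fold change -1.84 ± 0.13, edgeR's quasi-likelihood test, adjusted p = 0.00236). Of the 5 called genes, Irf8 was the only one called under each of the 10 other settings. Irf7, the factor that drives type I interferon after TLR7 and TLR9, was at 9.59 and 13.9 CPM in B1a and at 26.6 and 33.8 CPM in B2 cells, without overlap and not called (edgeR's quasi-likelihood test, adjusted p = 0.145). Irf5 was at 206 and 210 CPM in B1a and 251 and 247 CPM in B2 cells, and Irf3 at 124 and 105 CPM against 96.8 and 86.1 CPM. Neither was called. Of the 5 genes tied to RP105 signalling, 0 were called in edgeR's quasi-likelihood test, while 2 had an unadjusted p under 0.05 and 2 were called by DESeq2, Pik3cd among them. The kinase gene Lyn was at 679 and 701 CPM in B1a and 550 and 658 CPM in B2 cells and Pik3cd at 737 and 624 CPM against 435 and 455 CPM. Pik3cd was just short of the threshold (log2 fold change 0.61, edgeR's quasi-likelihood test, adjusted p = 0.0524) and passed in 6 of the 10 alternatives.

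**Figure D4:**
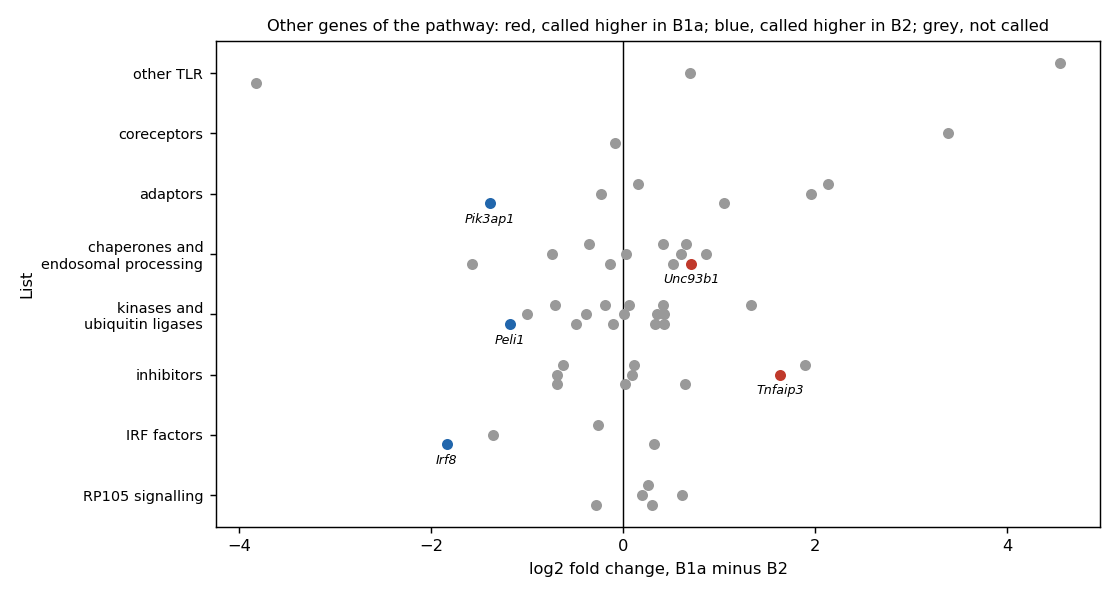
Log2 fold change of B1a over B2 cells (horizontal axis) for the 55 tested genes of the pathway other than the 10 genes, by list (vertical axis, with points offset only to keep them apart). The 2 genes called higher in B1a (red) and the 3 called higher in B2 cells (blue) are labelled.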

How the data were processed

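RNA-Seq libraries of wild-type B1a (n = 2) and B2 (n = 2) cells were analyzed; libraries of Dnmt3a-deficient cells were not analysed here. The labels name a total RNA kit with ribosomal depletion, and the submitters' processing notes name RSEM 1.2.29 and mm10, while the methods give another RSEM version and the paper's discussion speaks of polyadenylated RNA; which RNA was captured could not be settled here. The authors deposited an expected count per gene entry, in which RSEM divides reads that fit several entries, and TPM, which adjusts for transcript length and depth. The authors also deposited FPKM, not used here, and a signal column with the posterior standard deviation of each count.

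Expected counts were summed by symbol (21970 entries, 20599 symbols), rounded, filtered with filterByExpr (12078 genes) and scaled by TMM. The test was edgeR's quasi-likelihood test (version 4.0.16 in R 4.3.3), unblocked, with Benjamini-Hochberg adjustment over all tested genes and a threshold of 0.05. EBSeq, which the methods name, was not run. Standard errors and 95% intervals were derived from the F statistic. Totals were 11032732 to 18588623 counts per library, and the common biological coefficient of variation was 0.507, so small differences could be missed. The error differed between genes, and Cd79a was called at a log2 fold change of 0.53 ± 0.097 (SE). Alternatives were DESeq2 1.42.0, limma 3.58.1 and others given at the end. The scripts were tested on simulated data.

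The 10 genes and all lists were chosen with earlier results of these data known. Named genes are the 10 genes, pathway genes past the threshold and up to 3 others per list with the highest mean CPM. Positions and sequences are from GRCm38 (RefSeq, GENCODE vM21), and no genome sequence was used. Replicate numbers come from the labels, which state no pairing. Some of the genes that this rule selects are not reported here.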

Additional observations from a re-analysis of the deposited data

How the results depend on the processing

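Tlr1 was called, higher in B2 cells, under all 10 alternatives and with each of the 4 libraries left out. Over the 10 genes and the alternatives, 84 of 98 results kept direction and side of the threshold and 14 passed where edgeR's test without a block did not, with 0 reversals. The number called among the 10 genes was 5 with DESeq2 and with cell type weights in limma-voom (4 higher in B1a cells in each), and 4 without a filter and with the replicate block (3 higher in B1a cells in each). With a replicate left out it was between 1 and 8, with 0 to 7 higher in B1a and 1 to 2 higher in B2 cells. Both fits without a B1a library gave 8 calls (7 and 6 of them higher in B1a cells); there the lone B1a library is assumed to vary like the B2 libraries. Replicate numbers are shared by name only (correlation of same-numbered deviations -0.0347), so calls under the replicate block are not evidence of pairing. The cause of the other changes was not tested.

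Over all genes, 693 calls became 1562 with DESeq2, 1415 with weights, 1141 without a filter, 359 on log2(TPM + 0.1), 202 on log2(TPM + 1) without a filter and 1481 with the replicate block, and 539 to 6143 with a replicate left out. The 5 pathway calls became 13 with DESeq2 and with weights, 10 with limma-voom, 9 with 10 counts required in every library, 11 without a filter, 14 with the replicate block, 3 on log2(TPM + 0.1) and 1 on log2(TPM + 1) without a filter, and 3 to 32 with a replicate left out. The median log2 fold change of all genes was -0.03 in edgeR's fit and -0.30, -0.32 and -0.26 on the TPM scales, where 53.3%, 54.6% and 57.9% of calls were higher in B1a, against 73.9%, and 60.0% were so with the replicate block.

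Genes near 0 changed sign without being called. On log2(TPM + 1), with and without a filter, these were Myd88 (-0.086), Ikbkb (-0.21), Cyld (-0.23), Tnip1 (-0.079) and Lyn (-0.041), and on log2(TPM + 0.1) Myd88 (-0.088), Ikbkb (-0.21), Cyld (-0.24), Tnip1 (-0.080) and Lyn (-0.041), all less negative than the median of that scale. With upper quartile factors Ikbkb (-0.012) and Cyld (-0.053) turned. With a replicate left out, the log2 fold change lay between -0.23 and 1.33 for Tlr2, between -0.040 and 0.33 for Myd88, between -0.35 and 0.14 for Cd36, between -0.030 and 0.14 for Ikbkb, between -0.18 and 0.19 for Cyld and between -0.17 and 0.34 for Tnip1.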
